A study of Mus musculus with 4 samples.

Results

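Keratins are the intermediate filament proteins of epithelial cells, and 10 of their genes are described here across 4 RNA sequencing libraries of mouse skin cells. They were taken by name in 3 classes. Krt5, Krt14 and Krt15 are keratins of the basal layer, Krt6a, Krt6b, Krt16 and Krt17 are stress keratins, and Krt8, Krt18 and Krt19 are keratins of simple epithelia. All 10 were found among the 22524 genes of each library, and 9 passed the filter on low counts and were tested, since Krt18 did not pass.

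The Ezh2Y646N group came from mice that carried NrasQ61K under the tyrosinase (Tyr) promoter together with a conditional Ezh2Y646N allele, a mutant of Ezh2, the catalytic subunit of the histone methylating complex PRC2, in the ColA1 locus behind a stop cassette. The NrasQ61K group carried the Tyr-driven NrasQ61K without that allele. Both groups carried tamoxifen-dependent Cre (CreERT2) under the Tyr promoter and a Cre-dependent tdTomato reporter in the R26R locus, and both were given tamoxifen. The tdTomato-positive cells of pre-tumorigenic melanocytic dermal hyperplasia were sorted by flow cytometry, with 2 libraries per group. The Tyr promoter is active in pigment cells, so Cre and the mutant Ezh2 were directed to that lineage. Age is not given in the sources used here, and the labels do not say whether replicates came from separate animals. A p-value here therefore reflects only how far these 4 libraries spread, with each gene's spread moderated by that of all genes tested. That spread may be technical in NrasQ61K. The 2 Ezh2Y646N libraries differed in Y-linked RNA, as given below, so they are not repeats of the same RNA sample.

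Keratin filaments are built from pairs, each made of an acidic type I and a basic type II protein. Krt5 with Krt14 is the main pair of basal keratinocytes, the dividing cells of the epidermis, and Krt15 is a further type I keratin of basal cells and of the stem cell region of the hair follicle. Krt6a and Krt6b, of type II, with Krt16 and Krt17, of type I, are induced in epidermis by wounding and are present without injury in parts of the hair follicle such as the companion layer and outer root sheath. Krt8, of type II, with Krt18, of type I, is the pair of simple epithelia and of Merkel cells, the touch receptor cells of skin. Krt19, the smallest type I keratin, is found in simple epithelia and in hair follicles. Keratins mark epithelial cells rather than pigment cells.

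The sort was for pigment cells, and markers of both pigment cells and keratinocytes were measured. The 8 melanocyte markers, all tested, summed to 3806 and 3922 CPM, read counts scaled to library size, in the libraries labelled Ezh2Y646N and to 2605 and 3406 CPM in those labelled NrasQ61K, with 0 called by edgeR, DESeq2 or voom and 0 at an unadjusted p under 0.05. Dct, which encodes an enzyme of melanin synthesis, was at 2203 and 2757 CPM in the Ezh2Y646N libraries and at 1486 and 2002 CPM in the NrasQ61K libraries. The basal keratins alone summed to 10352 and 15804 CPM in the Ezh2Y646N libraries and to 7715 and 19983 CPM in the NrasQ61K libraries, which is more than the melanocyte markers in each library. In such bulk samples, fewer cells of a type and less RNA per cell cannot be told apart. Total counts ranged from 14808801 to 20600297 per library. Between replicates, the chi-square of counts over its degrees of freedom was 40.2 in Ezh2Y646N and 87.8 in NrasQ61K, well above counting noise. RNA of 4 Y-linked genes was at 0.207 CPM in Ezh2Y646N replicate 2 and at 242 to 341 CPM in the other 3 libraries. Ezh2 had a log2 fold change of -0.11 (SE 0.39), and a gene-level count holds mutant and endogenous transcripts alike; the groups are named by their labels.

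Krt6a and Krt6b are adjacent on chromosome 15 (GRCm38, minus strand; Krt6a, ENSMUSG00000058354, 101689910 to 101694307; Krt6b, ENSMUSG00000023041, 101676023 to 101680287) and are nearly the same in sequence. Their coding sequences in GENCODE M21 differed at 37 of 1659 aligned bases, an identity of 97.8%. The stretch of 120 coding bases in which they differ most, coding bases 751 to 870 of both genes, is shown. It holds 17 of the 37 differences, letters by which a read can be assigned to either gene. Capitals mark the 17 bases that differ.
Krt6a: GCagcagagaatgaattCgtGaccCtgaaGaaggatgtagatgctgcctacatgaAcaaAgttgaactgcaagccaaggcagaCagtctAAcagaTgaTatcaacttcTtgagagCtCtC
Krt6b: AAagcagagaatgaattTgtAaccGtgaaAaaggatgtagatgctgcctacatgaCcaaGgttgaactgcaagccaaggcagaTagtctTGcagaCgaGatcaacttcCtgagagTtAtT
Of the windows of 50 bases along the Krt6a transcript, 43.6% occur unchanged in Krt6b, and 49.5% occur in some other gene. The share found in other genes was 50.1% for Krt6b, 37.6% for Krt16, 26.9% for Krt8, all of it shared with Krt8-ps, 14.4% for Krt14 and 8.52% for Krt5. It was 3.99% for Krt17, 0.72% for Krt18, 0.666% for Krt15 and 0% for Krt19. How the submitters' counting treated reads that match several genes is not given in the sources used here, so the counts of Krt6a, Krt6b, Krt16 and Krt8 are the least certain. Krt6a and Krt8 also share 471 and 101 exon bases with annotated genes on the opposite strand, Gm49428 and Gm36026. Krt5, Krt6a and Krt6b each share a further 129 exon bases with a microRNA gene on the opposite strand. None of these opposite-strand genes was counted, and the strand setting of the counting is not given.

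Of the 9 keratins tested, Krt6a fell and no other passed the threshold, an adjusted p of 0.05 in edgeR's quasi-likelihood test over all 14265 genes tested. Fold changes are of Ezh2Y646N over NrasQ61K. Over all genes tested, 0.673% were called lower and 1.1% higher, 1.77% in either direction, beside 1 lower and 0 higher of the 9 keratins. An unadjusted p under 0.05 was found for 3 of them, beside 2039 of all 14265 genes tested, and DESeq2 and limma voom also called 1 lower and 0 higher. The log2 fold change was above 0 for 3 and below 0 for 6, with a median of -0.34 beside -0.04 over all genes tested. The SE of a single keratin ranged from 0.42 to 0.93, and each of the 10 keratins was 1.36-fold to 4.68-fold higher in NrasQ61K replicate 2 than in NrasQ61K replicate 1.

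**Figure D1:**
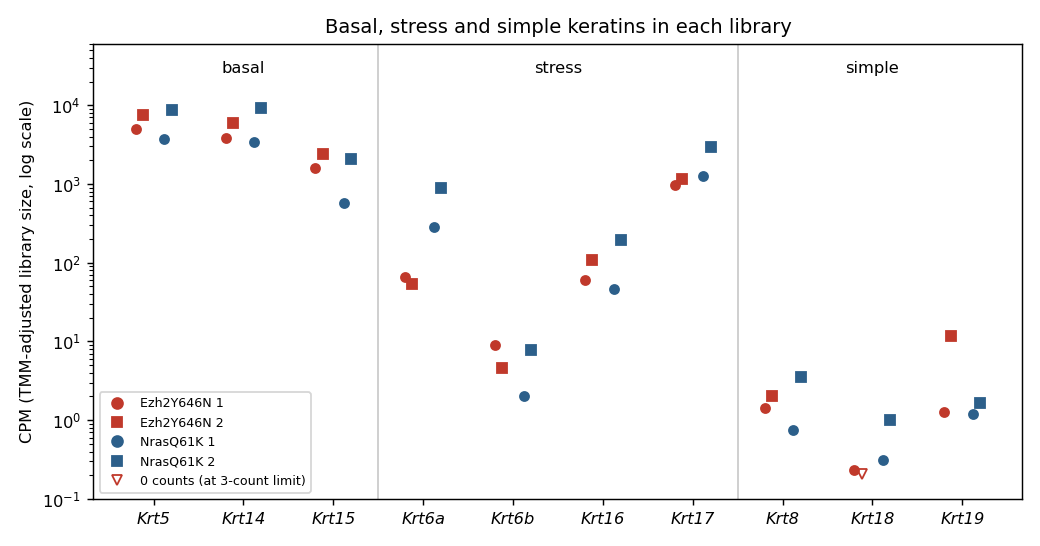
CPM of the 10 keratins in each library on a log scale, with circles for replicate 1, squares for replicate 2, red for Ezh2Y646N and blue for NrasQ61K. Krt6a is the one tested keratin for which the groups lie far apart, at 52.9 and 65.3 CPM against 284 and 880 CPM; the open triangle is a count of 0 drawn at the limit of 3 counts.

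Krt5 and Krt14 were the most abundant of the set, and none of the basal keratins separated the groups. Krt5 (ENSMUSG00000061527, chromosome 15, 101707070 to 101712898) was at 4932 and 7466 CPM in the Ezh2Y646N libraries and at 3750 and 8762 CPM in the NrasQ61K libraries. Krt14 (ENSMUSG00000045545, chromosome 11, 100203162 to 100207548) was at 3847 and 5903 CPM in the Ezh2Y646N libraries and at 3385 and 9118 CPM in the NrasQ61K libraries. For both genes the Ezh2Y646N libraries lay between the 2 NrasQ61K libraries. The log2 fold change was -0.01 for Krt5 (95% interval -1.09 to 1.06) and -0.36 for Krt14 (-1.51 to 0.80), with adjusted p of 0.994 and 0.841 in edgeR. Krt5 was at 0.77 and Krt14 at 0.57 without NrasQ61K replicate 2.

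Krt15 (ENSMUSG00000054146, chromosome 11, 100131758 to 100135928), the basal keratin also found in follicle stem cells, was at 1573 and 2434 CPM in the Ezh2Y646N libraries and at 580 and 2102 CPM in the NrasQ61K libraries. NrasQ61K replicate 1 was low and the other 3 lay closer together. The log2 fold change was 0.58 (SE 0.56, 95% interval -0.71 to 1.87, edgeR's adjusted p = 0.75). Without NrasQ61K replicate 2 it was 1.83 and past the threshold (adjusted p = 0.00641), and without NrasQ61K replicate 1 it was -0.07.

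Krt6a, a wound-induced type II keratin, was at 65.3 and 52.9 CPM in the Ezh2Y646N libraries and at 284 and 880 CPM in the NrasQ61K libraries. Both Ezh2Y646N libraries were low and close to each other, and the groups did not overlap. Krt6a averaged 59.1 ± 8.80 CPM in Ezh2Y646N and 582 ± 422 CPM in NrasQ61K (SD, n = 2 each), and the log2 fold change was -3.30 (SE 0.51, 95% interval -4.49 to -2.11, edgeR's adjusted p = 0.0323). That is 9.84-fold lower in Ezh2Y646N. The call was lost without Ezh2Y646N replicate 1 (log2 fold change -3.46, adjusted p = 0.142) and without Ezh2Y646N replicate 2 (-3.16, 0.133). Without NrasQ61K replicate 2 it was -2.22 and called. With the counts of Krt6a and Krt6b summed, an alternative chosen after seeing the data, the levels were 74.3 and 57.5 CPM in Ezh2Y646N and 286 and 888 CPM in NrasQ61K, with a log2 fold change of -3.15 (edgeR's adjusted p = 0.0355).

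Krt6b, the near-copy, was far less abundant and its groups overlapped. It was at 8.97 and 4.63 CPM in the Ezh2Y646N libraries and at 2.02 and 7.77 CPM in the NrasQ61K libraries, and the log2 fold change was 0.47 (SE 0.65, 95% interval -1.04 to 1.97, edgeR's adjusted p = 0.843). Per kilobase of exon, Krt6a was 6.74-fold and 10.6-fold above Krt6b in the Ezh2Y646N libraries and 130-fold and 105-fold above it in the NrasQ61K libraries. The highest Krt6b level was in Ezh2Y646N replicate 1 and the lowest in NrasQ61K replicate 1. Its log2 fold change was 1.79 without NrasQ61K replicate 2.

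The type I stress keratins did not pass the threshold. Krt17 (ENSMUSG00000035557, chromosome 11, 100256217 to 100261029) was at 969 and 1168 CPM in the Ezh2Y646N libraries and at 1268 and 2960 CPM in the NrasQ61K libraries. The groups did not overlap, which was also so for 23.1% of all genes tested in the lower direction. Its log2 fold change was -0.98 (SE 0.42, 95% interval -1.95 to -0.02, edgeR's adjusted p = 0.34). It was called without NrasQ61K replicate 1 (-1.47, adjusted p = 0.0114) and with no filter on low counts (-0.99, 0.0287), and was -0.21 without NrasQ61K replicate 2. Krt16 (ENSMUSG00000053797, chromosome 11, 100246091 to 100248902) was at 59.9 and 109 CPM in the Ezh2Y646N libraries and at 46.4 and 193 CPM in the NrasQ61K libraries, which overlapped. Its log2 fold change was -0.51 (SE 0.59, 95% interval -1.87 to 0.86, edgeR's adjusted p = 0.802).

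**Figure D2:**
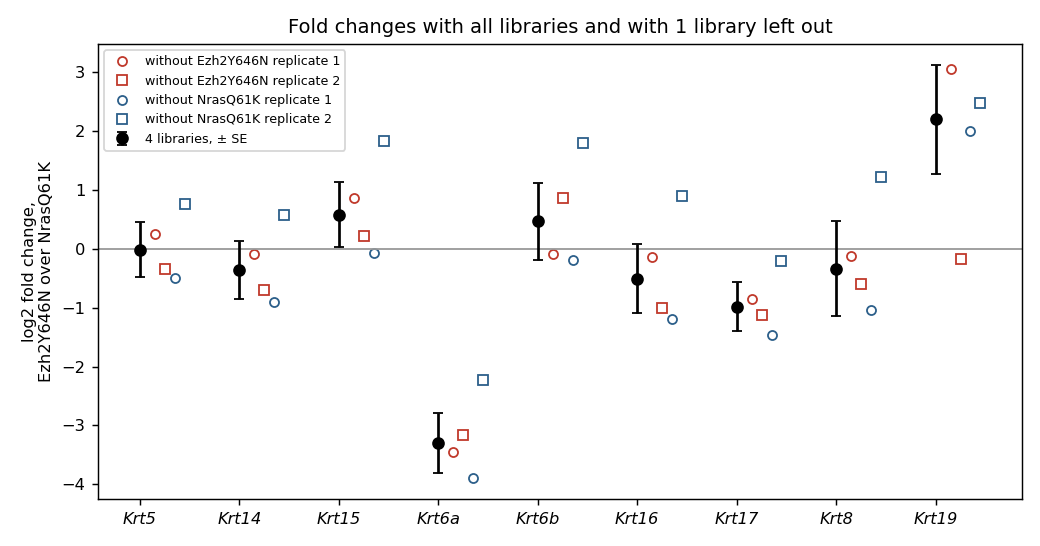
Log2 fold changes of the 9 tested keratins, Ezh2Y646N over NrasQ61K, with all 4 libraries (black, ± SE) and with each library left out in turn (open symbols). Krt6a lies between -3.90 and -2.22 with any 1 library left out, while Krt5, Krt14, Krt15, Krt6b, Krt16, Krt8 and Krt19 cross 0.

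The simple keratins were the least abundant class, and Krt18 had few counts in any library. Krt8 (ENSMUSG00000049382, chromosome 15, 101996698 to 102004482) had 25 and 29 counts in the Ezh2Y646N libraries and 12 and 74 in the NrasQ61K libraries, which is 1.44 and 2.003 CPM in Ezh2Y646N and 0.758 and 3.55 CPM in NrasQ61K. Its log2 fold change was -0.34 (SE 0.80, 95% interval -2.21 to 1.53, edgeR's adjusted p = 0.916). Krt18 (ENSMUSG00000023043, chromosome 15, 102028180 to 102032027) is the one type I gene of the set that lies in the type II cluster. It had 4 and 0 counts in the Ezh2Y646N libraries and 5 and 21 in the NrasQ61K libraries. The exact Poisson 95% intervals were 1.09 to 10.2 and 0 to 3.69 counts in Ezh2Y646N, and 1.62 to 11.7 and 13.0 to 32.1 counts in NrasQ61K, covering counting error only. With no filter on low counts Krt18 was at -2.42 on the log2 scale (SE 1.85; edgeR's adjusted p = 0.715). Of the 7 Merkel cell markers, which include Krt20, 4 were tested and 0 were called by edgeR, DESeq2 or voom, with 0 at an unadjusted p under 0.05. They summed to 10.5 and 6.28 CPM in Ezh2Y646N and to 8.66 and 10.98 CPM in NrasQ61K, and their defining regulator Atoh1 was at 0 in both Ezh2Y646N libraries and in NrasQ61K replicate 2. Of 8 tested markers of simple and glandular epithelium, 0 were called by any of these tools and 1 had an unadjusted p under 0.05 (median 0.03). This list is not confined to genes as scarce as Krt8 and Krt18. Cdh1 was at 904 and 842 CPM in Ezh2Y646N and at 336 and 780 CPM in NrasQ61K.

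Krt19 (ENSMUSG00000020911, chromosome 11, 100140810 to 100148665) stood out in a single library. It was at 1.26 and 11.9 CPM in the Ezh2Y646N libraries, from 22 and 172 counts, and at 1.20 and 1.63 CPM in the NrasQ61K libraries, from 19 and 34 counts. Ezh2Y646N replicate 2 was high and the other 3 libraries were alike. The log2 fold change was 2.20 (SE 0.93, 95% interval 0.03 to 4.36, edgeR's adjusted p = 0.342), and -0.17 without Ezh2Y646N replicate 2. It was past the threshold without Ezh2Y646N replicate 1 (3.06, adjusted p = 0.0409) and with no filter on low counts (2.20, 0.00194). In the same library Krt13, a keratin of internal stratified epithelia chosen here after its values were seen, was at 18.9 CPM, against 0.690 CPM in Ezh2Y646N replicate 1 and 0.190 and 0.240 CPM in the NrasQ61K libraries. Its usual partner Krt4 was at 1.38 CPM there, against 0 CPM in Ezh2Y646N replicate 1 and 0.126 and 0.336 CPM in the NrasQ61K libraries. The part of such cells, or of the difference in Y-linked RNA, in the Krt19 value was not tested.

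Levels were compared between genes per kilobase of exon. In that unit the order of the means over the 4 libraries was Krt14, Krt5, Krt17, Krt15, Krt6a, Krt16, Krt6b, Krt19, Krt8 and Krt18. Krt14 averaged 3165 and Krt5 2835 CPM per kilobase, and Krt5 was above Krt14 in both Ezh2Y646N libraries and below it in both NrasQ61K libraries, while with the length of the longest transcript Krt14 was the higher in all 4. Krt17 and Krt15, at 1026 and 946, also changed places, with Krt15 above Krt17 in both Ezh2Y646N libraries and Krt17 above Krt15 in both NrasQ61K libraries. Krt6a averaged 133 and Krt16 65.2, and here too the order differed, with Krt16 above Krt6a in both Ezh2Y646N libraries and Krt6a above Krt16 in both NrasQ61K libraries. The last 4 were at 2.62 for Krt6b, 2.15 for Krt19, 0.989 for Krt8 and 0.27 for Krt18, and their spread over libraries overlapped from one to the next.

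Set against Krt14 in the same library, per kilobase of exon, several keratins had values that were close within a group. These ratios combine members and were not tested, and of them only Krt5 over Krt14 was fixed in the design. For CPM of single genes, the groups did not overlap for 21.1% of all genes tested in the higher direction and 23.1% in the lower. No such share was computed for ratios. Krt5 was at 103% and 101% of the Krt14 level in the Ezh2Y646N libraries and at 88.7% and 76.9% in the NrasQ61K libraries. Krt15 was at 40.7% and 41.0% in the Ezh2Y646N libraries and at 17.0% and 22.9% in the NrasQ61K libraries. Both were higher relative to Krt14 in each Ezh2Y646N library than in either NrasQ61K library. Krt17 was at 28.6% and 22.4% in the Ezh2Y646N libraries and at 42.5% and 36.8% in the NrasQ61K libraries. Krt6a was at 1.24% and 0.652% in the Ezh2Y646N libraries and at 6.10% and 7.02% in the NrasQ61K libraries. Both were lower relative to Krt14 in each Ezh2Y646N library, while Krt16 overlapped, at 1.75% and 2.07% in Ezh2Y646N and 1.54% and 2.38% in NrasQ61K.

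**Figure D3:**
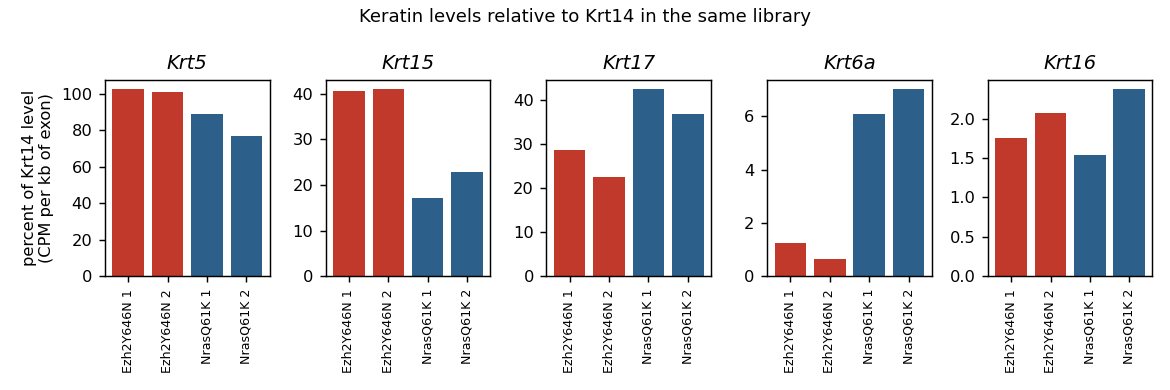
Level of 5 keratins as a percentage of Krt14 in the same library, both in CPM per kilobase of exon, with 1 bar per library, red for Ezh2Y646N and blue for NrasQ61K. Krt5 and Krt15 are higher relative to Krt14 in both Ezh2Y646N libraries, Krt17 and Krt6a lower, and Krt16 overlaps. These ratios were not tested, and only Krt5 over Krt14 was fixed in the design.

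The balance of type II to type I keratins was followed for each pair as the log2 ratio of their levels per kilobase. Krt5 over Krt14 was at 0.04 and 0.02 in the Ezh2Y646N libraries and at -0.17 and -0.38 in the NrasQ61K libraries, a difference of 0.30 between group means. Krt6a plus Krt6b over Krt16 plus Krt17 was at -4.42 and -5.10 in the Ezh2Y646N libraries and at -2.84 and -2.47 in the NrasQ61K libraries, a difference of -2.11. The type II sum is mostly Krt6a, so this ratio largely restates the Krt6a values, and Krt6b had a log2 fold change of 0.47. Without 1 library the difference was between -2.45 and -1.76. Krt8 over Krt18 could not be formed in Ezh2Y646N replicate 2, where Krt18 had no count.

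Other keratins were measured in the same libraries. All 53 protein-coding keratin genes took 6.42% and 5.41% of counts in the Ezh2Y646N libraries and 1.70% and 3.69% in the NrasQ61K libraries. The 10 keratins described here took 1.10% and 1.65% in Ezh2Y646N (95% Wilson intervals 1.10 to 1.11 and 1.64 to 1.65) and 0.996% and 2.43% in NrasQ61K (0.991 to 1.001 and 2.43 to 2.44), so the groups overlapped. These intervals cover counting error only and are narrower than the spread between replicates. Of 8 tested suprabasal keratins, 2 rose and 0 fell by edgeR, with a median log2 fold change of 3.03. DESeq2 called 7 and voom 4 higher. Epidermal members of this list replace Krt5 and Krt14 as cells leave the basal layer. It also holds Krt13, of internal stratified epithelia, which was high in Ezh2Y646N replicate 2 alone. Krt2 was at 2898 and 38.1 CPM in the Ezh2Y646N libraries and at 6.95 and 18.8 CPM in the NrasQ61K libraries. Krt77 rose by 3.27 and Krt78 by 3.35 on the log2 scale (edgeR's adjusted p = 0.0323 and 0.0243), and Krt10 was at 2.78 (0.0514). Krt10 was called by DESeq2 and voom, with library totals, no filter or the replicate block, and without either NrasQ61K library. Whether this list differed from the basal keratins was not tested.

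Several keratins of the hair follicle were lower in the Ezh2Y646N libraries, as Krt6a was. Krt75, the type II keratin of the companion layer where Krt6a is also found, was at 23.5 and 14.4 CPM in the Ezh2Y646N libraries and at 218 and 120 CPM in the NrasQ61K libraries, and fell by 3.15 on the log2 scale (edgeR's adjusted p = 0.0243). Unlike Krt6a, it was higher in NrasQ61K replicate 1 than in replicate 2. Of 4 tested companion layer and junctional keratins 1 fell and 0 rose (median -1.45), and Krt79, of the follicle junction, was at -0.56 and did not pass. Of 19 tested hair shaft and inner root sheath keratins 7 fell and 0 rose (median -3.18, also with Krt34 set to the fold against 3 counts per library; 15 lower by DESeq2, 5 by voom), among them Krt35 (-2.98) and Krt81 (-3.97). Their summed level was 299 and 152 CPM in Ezh2Y646N and 1997 and 938 CPM in NrasQ61K. Krt34 was at 0 in both Ezh2Y646N libraries and at 2.84 and 1.82 CPM in the NrasQ61K libraries. Krt74, annotated as a pseudogene and not tested, was at 0 in both Ezh2Y646N libraries and at 0.885 and 0.192 CPM in NrasQ61K. Of 9 markers of follicle stem cells and the outer root sheath, all tested, 1 fell by edgeR, Cd34 (-1.53). DESeq2 called 1 higher and 2 lower and voom called 0. Lgr6 was at 1.81 and Sox9 at -1.49, and neither passed in edgeR (adjusted p = 0.0507 and 0.154). The log2 fold change was above 0 for 5 of the 9 and below 0 for 4. The list summed to 1415 and 1790 CPM in Ezh2Y646N and 1037 and 3183 CPM in NrasQ61K (median 0.04). These sums include Krt79, also counted among the junctional keratins above, at 452 and 1004 CPM in Ezh2Y646N and 370 and 1775 CPM in NrasQ61K. The part of hair follicle cells in the Krt6a result was not tested. Cd34, Krt35 and Krt81 lost their calls without either Ezh2Y646N library, Krt77 without Ezh2Y646N replicate 1, Cd34 and Krt81 under voom, and Cd34 also with RLE size factors and with the other keratin genes left out.

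**Figure D4:**
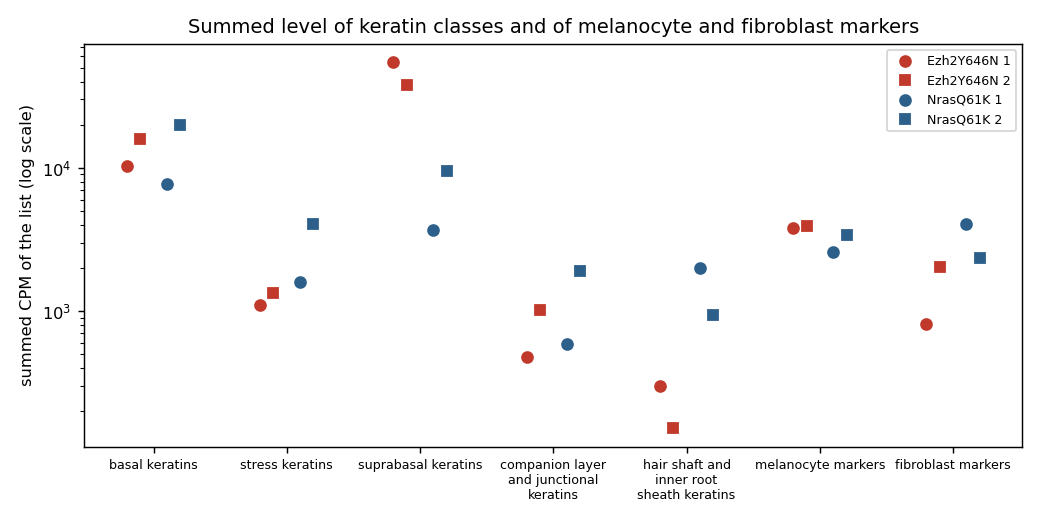
Summed CPM of keratin classes and of melanocyte and fibroblast markers in each library, on a log scale, with symbols as in the plot of single keratins. Basal keratins overlap between groups, suprabasal keratins are higher and hair shaft and inner root sheath keratins lower in both Ezh2Y646N libraries.

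Genes that anchor keratins or act beside them in basal cells were mostly not past edgeR's threshold. Of 11 tested genes of hemidesmosomes and the basement membrane, which tie Krt5 and Krt14 to the dermis, 0 were called by edgeR, DESeq2 or voom and 0 had an unadjusted p under 0.05 (median 0.23). Of 12 tested genes of desmosomes and keratin linkers 1 rose and 0 fell by edgeR (median 0.68), with 3 higher and 1 lower by DESeq2, 2 higher and 0 lower by voom and 4 at an unadjusted p under 0.05. It was Ppl (1.70), which encodes the linker periplakin, and Dsp, desmoplakin, was at 0.80 and did not pass; it was called at 1.34 without NrasQ61K replicate 2 and was at 0.43 without NrasQ61K replicate 1. Ppl lost its call without either Ezh2Y646N library, with RLE size factors, in the fit that was not robust and with the other keratin genes left out. Of 10 tested regulators of basal keratinocytes 0 were called by edgeR or voom, 1 was higher by DESeq2 and 2 had an unadjusted p under 0.05 (median 0.44). The log2 fold change was above 0 for 8 of them and below 0 for 2. Grhl3 had the smallest p of the list, at 1.32 on the log2 scale, and did not pass (edgeR's adjusted p = 0.0701). Trp63, the main regulator of the basal state, had a log2 fold change of 0.03 and Klf5, another regulator, one of 0.66, which was 1.02 and called without NrasQ61K replicate 2 and 0.40 without NrasQ61K replicate 1.

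Genes of the epidermal response to wounding, in which Krt6a, Krt16 and Krt17 are induced, were mostly not past edgeR's threshold. Among the 14 tested, 1 rose, 0 fell and the median was -0.30; DESeq2 called 2 higher and 0 lower, voom 1 and 0, and 4 had an unadjusted p under 0.05. The gene that rose was Ereg, an EGF receptor ligand, at 35.3 and 27.4 CPM in Ezh2Y646N and 1.45 and 3.74 CPM in NrasQ61K (3.57, edgeR's adjusted p = 0.0268). The cytokine gene Il36g was at 2.52 and did not pass in edgeR (adjusted p = 0.0879); it was called by DESeq2, with no filter on low counts, with the replicate block and, at 3.55, without NrasQ61K replicate 2. Ptgs2, which encodes a prostaglandin synthase, was at -1.40 and the cytokine gene Il1b at -3.45, and neither passed. Il1b rests on low levels, 0.460 and 0 CPM in the Ezh2Y646N libraries and 1.45 and 3.93 CPM in the NrasQ61K libraries. Stat3 and Nfe2l2, the most abundant of the list, were at 0.15 and -0.03. Of the 14, the log2 fold change was above 0 for 5 and below 0 for 9. The alarmin genes S100a8 and S100a9 were not tested and were at or below 0.402 CPM in both Ezh2Y646N libraries, and at 0.0632 and 2.16 CPM and at 0 and 4.51 CPM in the NrasQ61K libraries. Fibroblast markers were lower in the same libraries, with 2 of 8 fallen by edgeR, 0 risen and a median of -1.39; DESeq2 called 4 lower and 0 higher, voom called 0, and 6 had an unadjusted p under 0.05. Dpt was at -2.08. Col1a1 was at -1.13 and did not pass, with -0.55 without Ezh2Y646N replicate 1, -2.12 without Ezh2Y646N replicate 2 and -0.72 without NrasQ61K replicate 1. They summed to 813 and 2028 CPM in Ezh2Y646N and 4041 and 2365 CPM in NrasQ61K, and their part in the keratin values was not tested. Dpt lost its call under voom, without NrasQ61K replicate 1 and without either of the Ezh2Y646N libraries. Endothelial markers summed to 117 and 69.6 CPM in Ezh2Y646N and 192 and 166 CPM in NrasQ61K (median -0.83), with 0 of 6 called by edgeR or voom, 1 by DESeq2 and 2 at an unadjusted p under 0.05. Macrophage and dendritic cell markers summed to 60.5 and 133 CPM in Ezh2Y646N and 141 and 368 CPM in NrasQ61K (median -1.48), with 0 of 6 called by edgeR or voom, 2 by DESeq2 and 5 at an unadjusted p under 0.05.

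Likeness of pattern was measured as the Euclidean distance of log2(CPM + 1), centred on the mean of the 4 libraries, from the mean profile of a class, among 10005 protein-coding genes with a mean of at least 10 CPM. Nearest to the stress keratins were Gas1 (distance 0.206), Angptl4 (0.258) and Cdc42ep3 (0.289), which were highest in NrasQ61K replicate 2, as Krt6a, Krt16 and Krt17 were and Krt6b was not. Nearest to the basal keratins were Fmo5 (0.132), Coq8a (0.16) and Ehf (0.164). Nearest to the simple keratins, a profile resting on few counts, were Slc27a3 (0.0787), Ptms (0.13) and Il4ra (0.136). With 4 libraries such distances only describe these libraries, and none of these 9 genes passed the threshold in the main test. Among alternatives that kept all 4 libraries, Gas1, Angptl4 and Cdc42ep3 were called with no filter on low counts. Angptl4 and Cdc42ep3 were also called with the replicate number as a block. Without NrasQ61K replicate 1, Gas1, Angptl4 and Cdc42ep3 were at -1.90, -1.56 and -1.47. Without NrasQ61K replicate 2 they were at -0.048, -0.13 and -0.16. Ehf was at -0.39 without NrasQ61K replicate 1 and at 1.27 without NrasQ61K replicate 2.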

How the data were processed

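The deposited values are whole-number read counts per Ensembl gene, with no normalization by the authors. Per the submitters' processing notes, the tools were STAR 2.5.4b, featureCounts, Trimmomatic, bcl2fastq 2.19 and edgeR, and the build GRCm38, with no roles stated. Per the labels, RNA was made into libraries with a stranded total RNA kit that removes ribosomal RNA. For annotation release, strand setting and multiply matching reads, the sources used here state nothing. Symbols, positions and transcript sequences came from GENCODE M21 (GRCm38), which held 22291 of the 22524 identifiers and lacked 233.

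The main test was edgeR 4.0.16's quasi-likelihood test (R 4.3.3), with filterByExpr (minimum 10 counts, 15 in total), TMM scaling, group as the only term, and robust dispersions, on 2 residual degrees of freedom. Benjamini-Hochberg adjustment ran over all genes tested. SE and 95% intervals of a fold change came from its F statistic, with each gene's variance moderated by that of all genes tested. The intervals used the total degrees of freedom after that step, which exceed the 2 residual ones. CPM use TMM-adjusted library sizes, and levels per kilobase use the union of exons. DESeq2 1.42.0 and limma 3.58.1 (voom) were alternatives, with other scalings and filters, the replicate number as a block, and each library left out. The scripts were tested on simulated data.

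The keratins, the other gene lists and the rule for naming genes were chosen with earlier results of these data known. The rule took the 10 keratins, up to 5 called members, the 2 of smallest p and the 2 most abundant of each list, and the 3 genes nearest in pattern to each class. Not every gene that the rule took is named here. Krt2, Krt13, Krt4, Krt34 and Krt74 were named after their values were seen, as were Atoh1, S100a8, S100a9, Ptgs2 and Il1b. Of 158 listed genes 157 were found, 2 of them under another symbol.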

Additional observations from a re-analysis of the deposited data

How the results depend on the processing

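Krt6a kept a negative log2 fold change under 13 alternatives and its call under 11 of them, with values from -3.90 to -2.22 without 1 library. The ranges without 1 library were -0.50 to 0.77 for Krt5, -0.90 to 0.57 for Krt14, -0.071 to 1.83 for Krt15, -0.19 to 1.79 for Krt6b, -1.19 to 0.90 for Krt16, -1.47 to -0.21 for Krt17, -1.05 to 1.21 for Krt8 and -0.17 to 3.06 for Krt19. Leaving out NrasQ61K replicate 2 changed the sign of Krt5, Krt14, Krt16 and Krt8, leaving out NrasQ61K replicate 1 that of Krt15 and Krt6b, leaving out Ezh2Y646N replicate 1 that of Krt5 and Krt6b, and leaving out Ezh2Y646N replicate 2 that of Krt19; the remaining library of a group is then assumed to vary like the other group. Krt5, at -0.01 with all libraries, was also above 0 with RLE size factors (0.0015), DESeq2 (0.0011), voom (0.10) and the replicate block (0.082). With no filter on low counts Krt17 (-0.99) and Krt19 (2.20) were called, which gave 1 keratin higher and 2 lower, with 686 of all genes higher and 616 lower and 13 and 40 of the related lists; the cause was not tested. Without 1 library, 0 to 1 keratins were higher and 0 to 2 lower, with 49 to 730 of all genes higher and 43 to 393 lower, and 3 to 22 and 2 to 20 of the related lists, beside 157, 96, 4 and 11 with all 4. The highest counts of all genes and related lists were without NrasQ61K replicate 2. Of all genes, DESeq2 called 505 higher and 378 lower, library totals without scaling 153 lower, and the fit without other keratin genes 63 lower. Of the related lists, DESeq2 called 14 higher and 26 lower, voom 7 and 6, RLE size factors 6 lower, library totals 19 lower, and the fit without other keratins 1 and 1, where the keratins of those lists were not tested and Ppl and Cd34 lost their calls. Library totals without scaling moved the median of all genes by -0.12. The replicate block, for a pairing the labels do not give (correlation of same-numbered deviations 0.14), called 710 and 627 of all genes and 15 and 34 of the related lists, with 0 keratins higher and 1 lower. The balance of Krt5 to Krt14 ranged from 0.20 to 0.41 and that of the stress keratins from -2.45 to -1.76 without 1 library. Of the other genes named, Trp63 changed sign with library totals (-0.084). Without 1 library the range was -0.17 to 0.20 for Trp63, -1.29 to 1.02 for Krt79, -0.44 to 1.12 for Fmo5, -0.33 to 1.12 for Coq8a, -0.39 to 1.27 for Ehf, -0.27 to 0.77 for Slc27a3, -0.39 to 0.51 for Ptms and -0.30 to 0.65 for Il4ra. It was -1.90 to -0.048 for Gas1, -1.56 to -0.13 for Angptl4 and -1.47 to -0.16 for Cdc42ep3. Counts were lowest for Krt18, at 0 to 21 per library. For Krt19 the gap between the Ezh2Y646N libraries, 22 and 172 counts, was beyond their Poisson intervals of 13.8 to 33.3 and 147 to 199.7.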
